A study of Mus musculus with 7 samples.

Results

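Messenger RNA of 10 genes of the response to low oxygen was followed in mouse embryos that carry or lack Adnp, which encodes a nuclear protein with zinc fingers and a homeobox domain that embryos need to pass mid-gestation. The genes were Bnip3, Ddit4, Ndrg1, Adm, Vegfa, Egln1, Egln3, P4ha1, P4ha2 and Hif1a, which are regulators and targets of the hypoxia-inducible factor (HIF) outside glycolysis. They were chosen by name, as probe sets whose array annotation gave that symbol alone, and made up 10 of the 12393 genes so annotated and 21 of 20380 probe sets. The embryos were C57BL/6 and were taken on embryonic day 9, when embryos without Adnp are described as already different in form but not yet degenerating. RNA of 2 littermates of the same genotype was pooled on each Affymetrix Murine Genome 430A array, which gave 2 wild-type (ADNP +/+), 3 heterozygous (ADNP +/-) and 2 knockout (ADNP -/-) pools from 14 embryos of mixed sex. The embryo bodies had been freed of yolk sac and amnion, and genotype was read by PCR of yolk sac DNA for ADNP, the neomycin resistance gene or both. The study asked which genes lie downstream of ADNP. The p-values below measure only the spread between these pools, whose split over litters is not given in the labels.

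HIF is a transcription factor made of an unstable alpha subunit, such as the product of Hif1a, and a stable partner, ARNT. With oxygen present, prolyl hydroxylases encoded by Egln1 and Egln3 mark the alpha subunit for destruction by the von Hippel-Lindau protein, and when oxygen falls the subunit persists and switches on genes for glycolysis, blood vessel growth, matrix assembly and mitochondrial turnover. HIF activity is therefore set mostly by the amount of protein, which arrays do not measure, and low oxygen is a normal state of parts of the mid-gestation embryo.

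The 7 arrays had median signals between 55.5 and 57.5. The loss of Adnp could not be checked, because the only probe set annotated to Adnp also covers its neighbour Dpm1. That probe set read 897.2 and 1025.6 in wild type, 1114.7, 985.9 and 1195.8 in heterozygotes, and 1880.2 and 1681.5 in the knockout, so the genotypes rest on the labels. Markers of heart, somites, neural tube, endothelium and primitive blood were found in every group. Among the heart markers Myl2 read 95.4 and 84.2 in the knockout against 474.9 to 696 in the other pools. Nppa read 54.6 and 34.5 against 157.8 to 201.7, while the remaining heart markers overlapped. The summed signal of 6 somite markers was 349.4 and 393.4 in the knockout against 554.4 to 714.5 in the other pools. That of 6 neural tube markers was 1081.5 and 1138.3 against 1585.6 to 1868.3. Neither fall was shared by the whole list. Pax3 and Myf5 among the somite markers, and Pax6 and Otx2 among the neural tube markers, overlapped between the knockout and the other pools. The summed signal of 7 trophoblast markers was 427 and 512.4 in the knockout against 243.5 to 355.7. Only Plac1 and Cdx2 among them read higher in both knockout pools than in every other pool. The remaining trophoblast markers overlapped, among them Tpbpa, Ctsq and Hand1, the brightest, so the sum does not show a rise shared by these markers. The summed signal of 4 markers of the maternal decidua was 915.9 in heterozygous replicate 1 against 74.5 to 223.9 in the other pools. Most of it came from Prl8a2, which read 828.6 in that pool, and the cause was not tested. Markers of the visceral endoderm, the absorptive layer that surrounds the early embryo, stood apart in the knockout. The summed signal of its 19 markers was 10876.1 and 12964.9 there, against 891.5 to 3177 in wild type and 954.4 to 2129 in heterozygotes, and none of them read 0 on all arrays. In pooled RNA, more cells of a kind and more RNA per cell cannot be told apart.

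Knockout embryos had more RNA of most of these low-oxygen genes than wild-type and heterozygous embryos, while differences in Hif1a and Vegfa did not pass the test. Of the 10 genes, 9 passed the filter on dim genes, and between knockout and wild type 5 of those 9 rose, 0 fell and 4 did not pass the threshold (limma, adjusted p under 0.05). The genes that rose were Bnip3, Ddit4, Ndrg1, Egln1 and P4ha1. Among all 8019 genes tested, 1.96% rose and 1.36% fell in that comparison, 3.32% in all. Between knockout and heterozygous embryos 6 of 9 rose and 0 fell, Egln3 being the sixth, where 3.11% of all genes rose and 2.76% fell, 5.86% in all. The median log2 difference of the 9 genes was 0.80 against wild type and 1.00 against heterozygotes, beside medians of -0.015 and -0.023 over all genes tested. Both comparisons use the same 2 knockout arrays. In 7 of the 9 genes past the filter both knockout arrays lay above all 5 other arrays, an arrangement seen in 14.2% of all genes tested. The same held for Adm, which was under the filter.

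**Figure D1:**
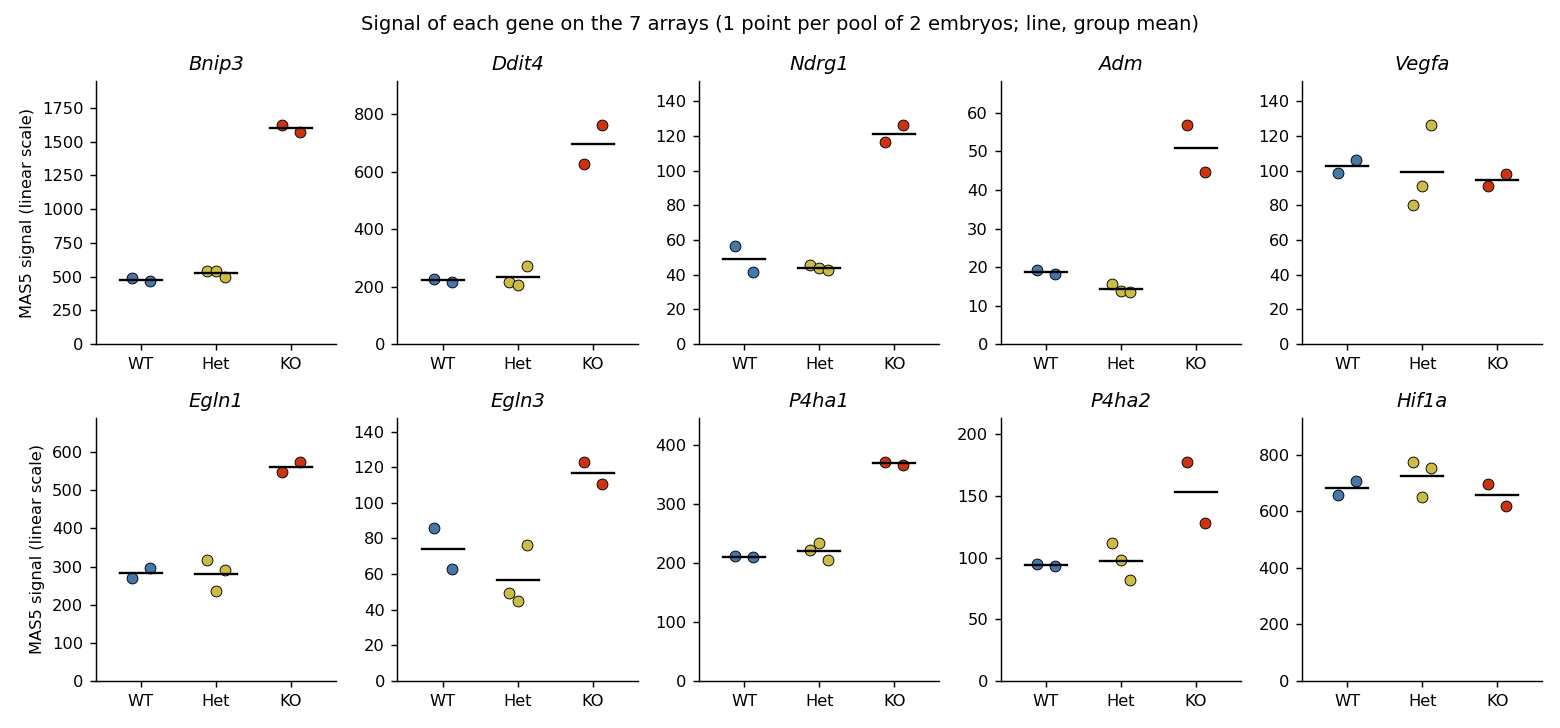
MAS5 signal on a linear scale (vertical axes, which differ between genes) of the brightest probe set of each of the 10 genes on the 2 wild-type (WT), 3 heterozygous (Het) and 2 knockout (KO) arrays. Points are single arrays and lines are group means; both knockout points lie above all others for every gene except Vegfa and Hif1a.

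Bnip3 encodes a protein of the outer mitochondrial membrane that promotes the removal of mitochondria by autophagy. Its signal was 491.1 and 466 in wild type, 540.3, 545.4 and 494.7 in heterozygotes, and 1623.9 and 1574.6 in the knockout. The 5 wild-type and heterozygous pools lay close together, and both knockout pools lay far above them. The mean rose from 478.6 ± 17.7 (SD, n = 2) to 1599 ± 34.9 (SD, n = 2), a ratio of 3.34. On the log2 scale the rise was 1.73 (SE 0.10, 95% interval 1.50 to 1.97, limma, adjusted p = 8.47e-05) against wild type and 1.60 (SE 0.095, adjusted p = 3.87e-05) against heterozygotes.

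Ddit4, also called REDD1, encodes an inhibitor of the growth kinase mTORC1 that acts through the tuberous sclerosis complex. Its signal was 227.7 and 216.1 in wild type, 216.3, 206.9 and 273.8 in heterozygotes, and 627.3 and 763.1 in the knockout. The knockout pools stayed clear of the rest, though they differed from each other more than the wild-type pools did. The mean went from 221.9 ± 8.20 to 695.2 ± 96.0 (SD, n = 2 each), a ratio of 3.13. The log2 rise was 1.62 (SE 0.16, 95% interval 1.27 to 1.98, limma, adjusted p = 0.000744) against wild type and 1.57 (SE 0.15, adjusted p = 0.000473) against heterozygotes. Bnip3 and Ddit4 passed the threshold in both comparisons whichever of the 7 arrays was left out. Leaving out a wild-type or knockout array leaves 1 in that group, which the fit assumes to vary like the other groups.

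Ndrg1 encodes a cytoplasmic protein induced by low oxygen and by differentiation. Its brightest probe set read 56.8 and 41.3 in wild type, 45.9, 43.7 and 42.7 in heterozygotes, and 116.3 and 126.3 in the knockout. The mean went from 49.1 ± 11.0 to 121.3 ± 7.07 (SD, n = 2 each), a ratio of 2.47. The rise was 1.26 (SE 0.21, 95% interval 0.78 to 1.73, limma, adjusted p = 0.0129) against wild type and 1.38 (SE 0.19, adjusted p = 0.00422) against heterozygotes. The other 4 probe sets of Ndrg1 were below the filter and were not tested in that fit. All 5 had both knockout arrays above the other 5 arrays, with log2 differences from wild type of 0.85 to 1.63. The call against wild type was lost without wild-type replicate 2 (adjusted p = 0.119), knockout replicate 1 (0.0859) or knockout replicate 2 (0.123), and that against heterozygotes without knockout replicate 2 (0.0673).

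**Figure D2:**
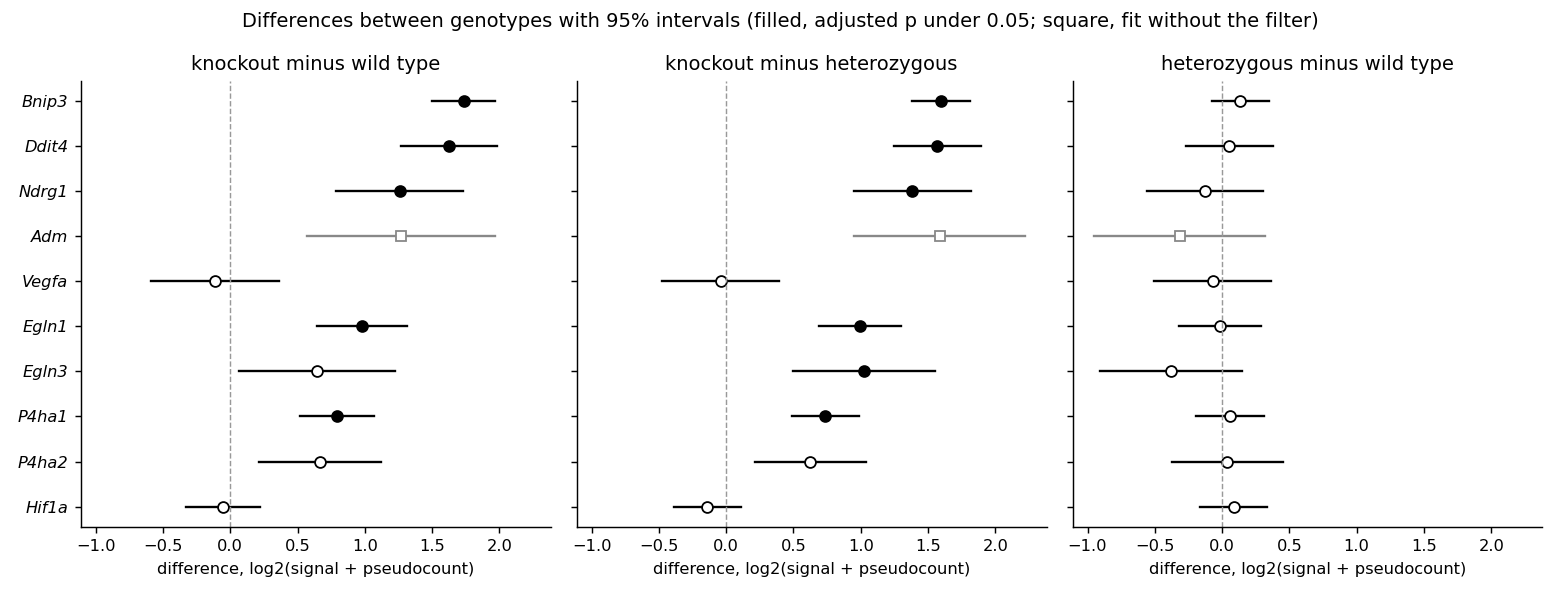
Log2 differences (horizontal axes, log2 of signal plus pseudocount) of the 10 genes in the 3 comparisons, as points with 95% intervals from limma. Filled points passed an adjusted p of 0.05, and the grey squares for Adm, drawn open whatever their p, come from a fit without the filter on dim genes; in the knockout comparisons all genes but Vegfa and Hif1a lie right of 0, and in the right panel every interval covers 0.

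Regulatory DNA is shown for Bnip3, Ddit4, Egln1 and P4ha1, which rose in both knockout comparisons, and for Hif1a, which had no call. HIF binds a short core, ACGTG or GCGTG, which was searched on both strands in the 250 bases before each gene's start (RefSeq, GRCm38.p6). Bases in capitals are matches on either strand (ACGTG reads CACGT and GCGTG reads CACGC on the other strand), and the hexamer CACGTG counts as a match on each strand. The sequences run 5′ to 3′ along the gene's own strand, from chr7:138909507-138909756 (minus strand) for Bnip3, chr10:59951771-59952020 (minus) for Ddit4, chr8:124949255-124949504 (minus) for Egln1, chr10:59323046-59323295 (plus) for P4ha1 and chr12:73907617-73907866 (plus) for Hif1a.
Bnip3: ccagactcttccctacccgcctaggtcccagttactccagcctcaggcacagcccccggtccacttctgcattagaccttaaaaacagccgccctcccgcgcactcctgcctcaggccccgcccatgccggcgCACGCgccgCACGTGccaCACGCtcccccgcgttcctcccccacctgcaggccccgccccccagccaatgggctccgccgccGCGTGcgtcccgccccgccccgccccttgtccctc
Ddit4: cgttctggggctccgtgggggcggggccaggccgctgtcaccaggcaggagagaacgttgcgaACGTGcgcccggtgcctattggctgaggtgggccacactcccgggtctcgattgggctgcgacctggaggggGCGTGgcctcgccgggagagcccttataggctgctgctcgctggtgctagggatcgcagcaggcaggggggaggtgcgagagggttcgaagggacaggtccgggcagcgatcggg
Egln1: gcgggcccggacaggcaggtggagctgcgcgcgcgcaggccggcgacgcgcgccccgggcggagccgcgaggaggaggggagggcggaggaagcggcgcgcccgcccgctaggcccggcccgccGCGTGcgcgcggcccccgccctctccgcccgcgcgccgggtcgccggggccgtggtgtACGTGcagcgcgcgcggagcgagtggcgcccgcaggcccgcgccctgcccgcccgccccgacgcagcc
P4ha1: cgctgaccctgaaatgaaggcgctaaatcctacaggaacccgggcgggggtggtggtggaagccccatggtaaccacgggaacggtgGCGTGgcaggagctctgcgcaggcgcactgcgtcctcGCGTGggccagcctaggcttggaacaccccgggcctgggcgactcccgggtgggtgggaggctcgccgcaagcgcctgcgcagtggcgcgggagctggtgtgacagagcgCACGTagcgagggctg
Hif1a: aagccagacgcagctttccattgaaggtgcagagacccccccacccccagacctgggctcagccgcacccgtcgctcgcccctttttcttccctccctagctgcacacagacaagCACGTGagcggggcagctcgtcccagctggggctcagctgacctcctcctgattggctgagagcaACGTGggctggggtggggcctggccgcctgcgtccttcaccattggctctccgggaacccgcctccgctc
Bnip3 had 5 matches, the first base of the nearest lying 35 bases before the start, and 3 of its matches fell between 99 and 108 bases before it, of which 2 form a CACGTG, a hexamer that E-box proteins also bind. Ddit4 had 2 matches, at 187 and 115 bases, and Egln1 had 2, at 126 and 68 bases. P4ha1 had 3 matches, at 163, 126 and 16 bases, and Hif1a had 3, of which 2 likewise form a CACGTG. A promoter was matched for 9 of the 10 genes, all but Ndrg1, and each of the 9 had a match in at least 1 window. Counted by window, 9 of their 10 windows held a match. Of all 32851 windows 38.6% held a match, as did 57.1% of the 8459 windows of the genes tested, so a match is common. Hif1a, P4ha2 and Egln3, which did not pass between knockout and wild type, held it too. Vegfa, which also did not pass, had 0 matches before its first listed start (chr17:46032378-46032627, minus strand). Its matches lay only before a second listed start downstream of the first (chr17:46025164-46025413).

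Among the oxygen sensors, Egln1 (PHD2), the main prolyl hydroxylase that inactivates HIF and itself a HIF target, rose. Its brightest probe set read 269.9 and 296.4 in wild type, 318.1, 236.6 and 290.6 in heterozygotes, and 548.1 and 575.4 in the knockout. The ratio of knockout to wild type was 1.98, and no wild-type or heterozygous pool came near the knockout pools. The log2 rise was 0.98 (SE 0.15, 95% interval 0.65 to 1.31, limma, adjusted p = 0.00828) against wild type and 1.00 (SE 0.14, adjusted p = 0.0037) against heterozygotes. The second probe set of Egln1 overlapped between genotypes, with 162.4 and 137.3 in wild type, 220.4, 112.7 and 242.8 in heterozygotes, and 237.6 and 277.7 in the knockout. Tested on its own it differed from wild type by 0.77 (SE 0.31, limma, adjusted p = 0.229), which did not pass. With the mean of both probe sets the call was lost against wild type (adjusted p = 0.0546) and against heterozygotes (0.0567). It was also lost against wild type without knockout replicate 1 (adjusted p = 0.0613) or 2 (0.0895), and against heterozygotes without knockout replicate 2 (0.06).

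Egln3 (PHD3), a second prolyl hydroxylase strongly induced by low oxygen in many cells, read on its brightest probe set 85.8 and 62.7 in wild type, 49.4, 45.1 and 76.3 in heterozygotes, and 123.2 and 110.6 in the knockout. Both knockout pools were the highest on that probe set, but wild type and heterozygotes spread widely. The other Egln3 probe set was below the filter and overlapped, with 13 and 24.9 in wild type, 36.1, 4 and 38.9 in heterozygotes, and 38.6 and 37.9 in the knockout. The difference from heterozygotes was 1.02 (SE 0.24, limma, adjusted p = 0.0359) and passed, and that from wild type was 0.64 (SE 0.26, 95% interval 0.06 to 1.22, adjusted p = 0.218) and did not. The call against heterozygotes was lost without heterozygous replicate 1 (adjusted p = 0.0767) or 2 (0.0664) and without knockout replicate 1 (0.211) or 2 (0.166).

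Hif1a, which encodes the alpha subunit itself, had no call. Its brightest probe set read 656.9 and 707.3 in wild type, 775.5, 648.7 and 752.9 in heterozygotes, and 696.7 and 618.4 in the knockout, so that the 3 genotypes overlapped. The log2 difference was -0.054 against wild type (SE 0.12, 95% interval -0.33 to 0.22, limma, adjusted p = 0.864) and -0.14 against heterozygotes (SE 0.11, adjusted p = 0.509). Its other 2 probe sets past the filter gave -0.069 and -0.47 against wild type, neither past the threshold. The remaining, dim probe set gave 0.45 and was not tested in the main fit.

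The collagen prolyl 4-hydroxylases P4ha1 and P4ha2 stabilise the collagen triple helix in the endoplasmic reticulum, a reaction that also uses oxygen. P4ha1 read 212.1 and 209.5 in wild type, 221.3, 232.9 and 205.5 in heterozygotes, and 371.7 and 365.6 in the knockout. Replicates agreed closely and the knockout lay apart, at 1.75 times the wild-type mean. The log2 rise was 0.80 (SE 0.12, 95% interval 0.52 to 1.07, limma, adjusted p = 0.00848) against wild type and 0.74 (SE 0.11, adjusted p = 0.00621) against heterozygotes. Its second probe set gave a smaller difference from wild type of 0.49 (SE 0.16, limma, adjusted p = 0.153), also with both knockout arrays above all others. The call of P4ha1 against wild type was lost without wild-type replicate 2 (adjusted p = 0.0822), knockout replicate 1 (0.0815) or 2 (0.0841), and against heterozygotes without either knockout array (0.0735 and 0.0772).

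P4ha2 read 94.6 and 93.3 in wild type, 111.5, 98.4 and 82.1 in heterozygotes, and 177.8 and 128.3 in the knockout. Both knockout pools were again the highest, but they differed from each other by more than the other 5 pools did among themselves. The difference of 0.66 from wild type (SE 0.20, 95% interval 0.21 to 1.12, limma, adjusted p = 0.111) and that of 0.63 from heterozygotes (SE 0.19, adjusted p = 0.0762) did not pass.

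Of the secreted signals, Vegfa, the main growth factor of blood vessels, had no call. Its brightest probe set read 98.7 and 106.2 in wild type, 80.1, 90.9 and 126.3 in heterozygotes, and 90.9 and 98.3 in the knockout. The knockout pools lay inside the range of the heterozygotes. The log2 difference from wild type was -0.11 (SE 0.21, 95% interval -0.59 to 0.37, limma, adjusted p = 0.839). The other Vegfa probe set gave 0.058 (SE 0.19, limma, adjusted p = 0.912).

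Adm encodes adrenomedullin, a peptide that widens vessels and is needed for lymphatic and cardiac development. Its only probe set was dim, read 19.2 and 18.2 in wild type, 15.5, 13.8 and 13.6 in heterozygotes, and 56.9 and 44.7 in the knockout, and did not reach the filter. The knockout pools did not overlap with the others. Detection calls were not used here, so it is not known whether the lower signals stand above background, and the differences are those of the listed signals. In a fit without the filter its difference was 1.27 from wild type (SE 0.31, limma, adjusted p = 0.0906), not past the threshold, and 1.59 from heterozygotes (SE 0.28, adjusted p = 0.0261), past it.

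Embryos with 1 copy of Adnp gave no call in these genes. Between heterozygotes and wild type 0 of 9 passed (limma), 0 had an unadjusted p under 0.05, and 0.0% of all 8019 genes passed, with 284 of them at an unadjusted p under 0.05. The log2 differences ran from -0.38 for Egln3 to 0.14 for Bnip3, with a median of 0.039 beside 0.0066 over all genes. For Bnip3 the 95% interval was -0.075 to 0.35, for Ddit4 -0.27 to 0.38 and for Ndrg1 -0.56 to 0.31, so that changes of the size seen in the knockout lay outside the intervals of these 3 genes.

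Other genes of the low-oxygen response were read from lists of textbook genes, some of which share members. Of 33 tested HIF targets outside the 10 genes, 9 rose, 1 fell and 23 did not pass between knockout and wild type (median log2 difference 0.38, limma). Over all genes tested 1.96% rose and 1.36% fell. Stc2, a secreted glycoprotein, rose by 2.26 (SE 0.22, adjusted p = 0.000744), from 47.4 and 34 in wild type to 202.3 and 210.6. Vldlr, a lipoprotein receptor, rose by 1.52 (SE 0.23, limma, adjusted p = 0.00848). Outside the knockout it read 23.5 to 40, so it passed the filter only through the knockout arrays. Plod2, which hydroxylates collagen lysines as P4ha1 does prolines, rose by 1.15 (SE 0.17, adjusted p = 0.00635), and Ero1a, which oxidises protein thiols in the same compartment, by 1.11 (SE 0.14, adjusted p = 0.00321). Hk2, a hexokinase, rose by 1.10 (SE 0.13, adjusted p = 0.00224). The member that fell was Cxcl12, a chemokine that guides migrating cells (-0.99, SE 0.19, adjusted p = 0.02), from 290.8 and 450.4 in wild type to 166.3 and 194.3. The list had 5 calls without wild-type replicate 2, 4 without knockout replicate 1 and 2 without knockout replicate 2. It had 0 with the visceral endoderm score described below in the fit (11 at an unadjusted p under 0.05) and 0 with the Y-linked score (3 unadjusted).

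Of 17 tested genes of glucose uptake and glycolysis 6 rose, 0 fell and 11 did not pass (median 0.45, limma), beside 1.96% rising and 1.36% falling over all genes. The 6 were Pfkfb3, the activator of phosphofructokinase (1.61, SE 0.21, adjusted p = 0.00392), Pfkp, a phosphofructokinase (1.24, SE 0.17, 0.00555), the glucose transporters Slc2a3 (1.23, SE 0.27, 0.0349) and Slc2a1 (0.80, SE 0.14, 0.0129), Hk2, and Pdk1, which keeps pyruvate out of mitochondria (0.80, SE 0.13, 0.0101). Leaving out wild-type replicate 2 left 3 calls, knockout replicate 1 left 2 and knockout replicate 2 left 1. The list had 0 calls with the endoderm score in the fit and 0 with the Y-linked score (limma; 4 at an unadjusted p under 0.05 in each).

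The subunits and regulators of HIF were read next. Of 13 tested HIF subunits and regulators 0 passed between knockout and wild type (limma; 0 also at an unadjusted p under 0.05), with differences from -0.44 to 0.29 and a median of -0.023. With 3.32% of all genes called, a list of this size with 0 calls is near the background. Arnt, the partner subunit, differed by -0.088 (SE 0.29, adjusted p = 0.912), Vhl, the ubiquitin ligase subunit that recognises hydroxylated HIF, by -0.44 (SE 0.23, adjusted p = 0.334), and Egln2, the third prolyl hydroxylase, by -0.24 (SE 0.15, adjusted p = 0.425). These 3 were picked after their values were seen.

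Of 19 tested relatives and partners of the 10 genes, 0 rose, 1 fell and 18 did not pass (median -0.077, limma), which is near the 3.32% of all genes called. The one that fell was Ndrg3, a relative of Ndrg1 (-0.93, SE 0.19, adjusted p = 0.0291), from 91.8 and 115.8 in wild type to 48.6 and 56. It had no call without wild-type replicate 2, heterozygous replicate 3 or knockout replicate 1. Against heterozygotes Ndrg3 did not pass (-0.56, SE 0.18, limma, adjusted p = 0.0919). Ddit4 is also a target of the integrated stress response, so 10 tested genes of that response were read. Beside 1.96% of all genes rising and 1.36% falling, 2 of them rose, 0 fell and 8 did not pass (median 0.14, limma). These were the serine and one-carbon enzymes Psph (0.96, SE 0.16, adjusted p = 0.0127) and Shmt2 (0.57, SE 0.13, 0.0434). Against heterozygotes Psph passed (0.97, SE 0.15, limma, adjusted p = 0.00612) and Shmt2 did not (0.41, SE 0.12, 0.0736). Atf4, the transcription factor of the response, differed from wild type by 0.10 (SE 0.12, limma, adjusted p = 0.699). Leaving out wild-type replicate 2 or a knockout array left 0 calls in that list, and leaving out wild-type replicate 1 or heterozygous replicate 3 left 1.

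**Figure D3:**
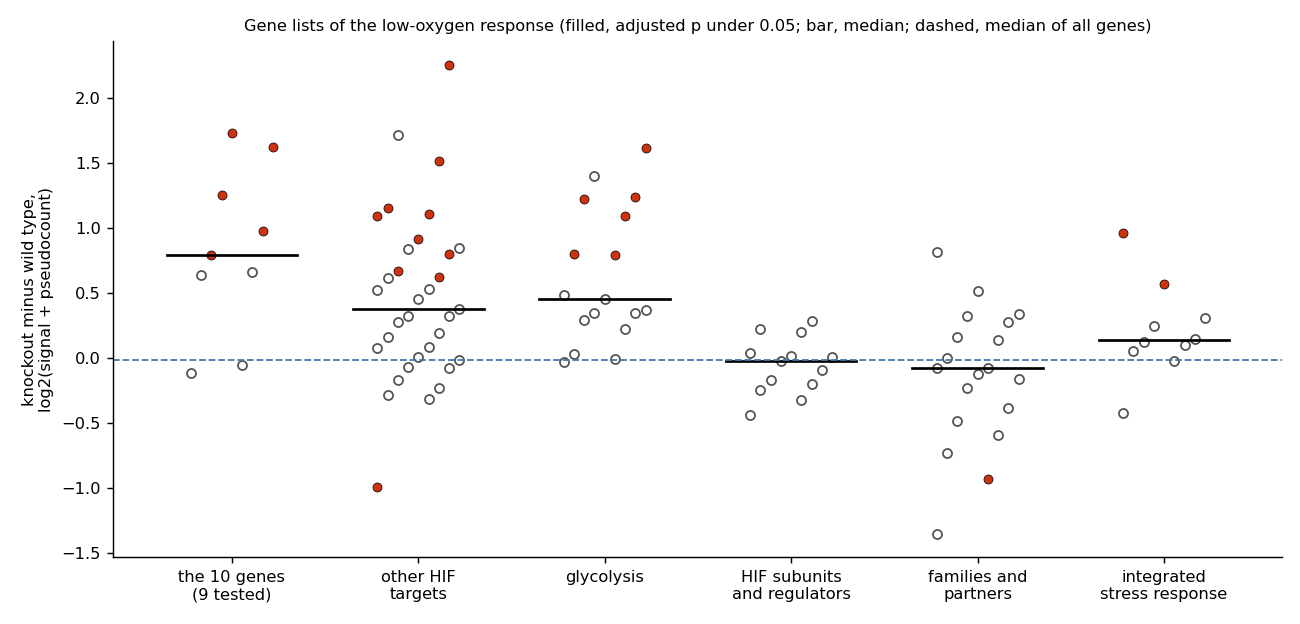
Log2 differences between knockout and wild type (vertical axis, log2 of signal plus pseudocount) for each tested gene of 6 lists (horizontal axis). Filled points passed an adjusted p of 0.05, bars are list medians and the dashed line is the median of all genes; targets and glycolysis genes lie mostly above 0, while HIF subunits and regulators scatter around it.

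The visceral endoderm markers were high in the same pools as the low-oxygen genes. Of 14 markers past the filter 10 rose and 0 fell between knockout and wild type (limma), beside 1.96% and 1.36% of all genes tested. The filter used the mean over all 7 arrays, so some markers were tested only because the knockout pools were high. Apob, for example, read 15.9 to 49.1 in the other pools against 246.6 and 317.4. This count is therefore partly fixed by the rise itself. The mean log2 signal of the 19 markers was 8.29 and 8.52 in the knockout, 6.48 and 4.82 in wild type and 4.68, 6.05 and 5.49 in heterozygotes. In the wild-type pools, at 6.48 and 4.82 on that scale, Bnip3 read 491.1 and 466 and Ddit4 227.7 and 216.1, while Ndrg1 read 56.8 and 41.3. Among the heterozygous pools the one highest in the markers, replicate 2, was the lowest in Ddit4, Egln1 and Egln3 and the highest in Bnip3 and P4ha1. With the marker score as a covariate 0 of the 9 genes passed in either knockout comparison (limma), and 4 had an unadjusted p under 0.05 in each. In that fit Bnip3 differed from wild type by 1.67 (adjusted p = 0.0504), Ddit4 by 1.53 (0.184), Egln1 by 1.43 (0.105), Ndrg1 by 0.89 (0.564) and P4ha1 by 0.74 (0.408). The score did not overlap between the knockout and the other pools, so in this design genotype and score cannot be told apart.

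**Figure D4:**
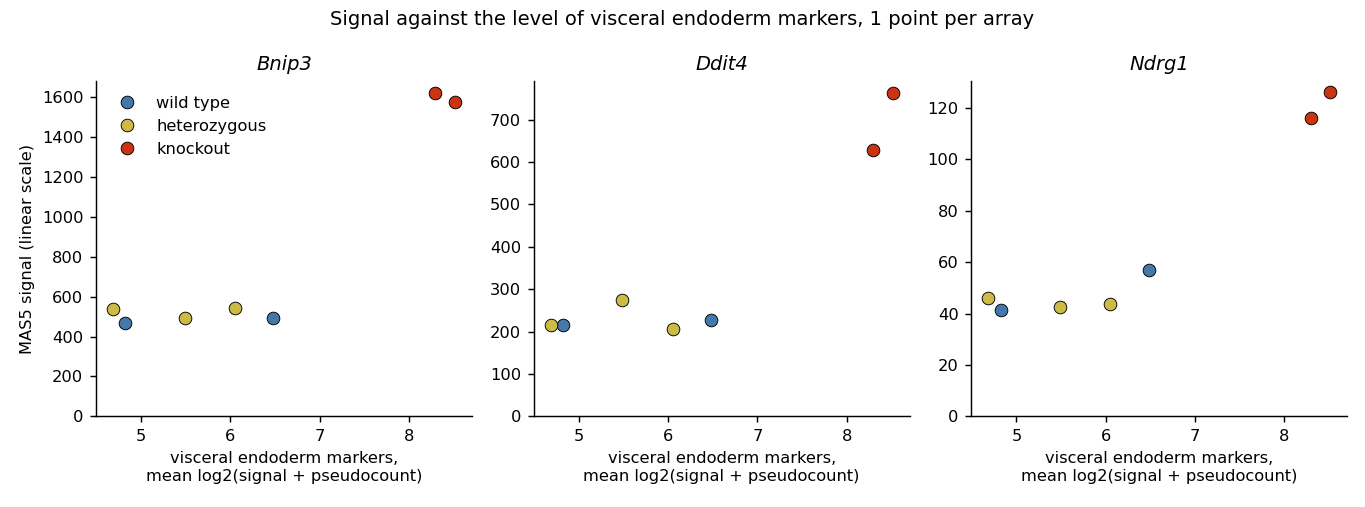
MAS5 signal (vertical axes, linear) of Bnip3, Ddit4 and Ndrg1 against the mean log2 signal of 19 visceral endoderm markers (horizontal axes), 1 point per array coloured by genotype. The 5 wild-type and heterozygous arrays spread from 4.68 to 6.48 in the markers at similar signals of Bnip3 and Ddit4, and both knockout arrays lie above 8 in the markers.

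Markers of male embryos differed between pools too. The mean log2 signal of 3 Y-linked genes was 3.56 and 3.14 in wild type, 5.40, 5.99 and 5.11 in heterozygotes, and 5.69 and 6.11 in the knockout. Heterozygotes and the knockout overlapped in this score, and both lay apart from wild type. In the comparisons with wild type, genotype and this score therefore cannot be told apart. When the Y-linked score was added to the fit, 0 of the 9 genes passed between knockout and wild type (limma; 3 at an unadjusted p under 0.05), with Bnip3 at 1.46 (adjusted p = 0.699). Between knockout and heterozygotes Bnip3, Ddit4, Ndrg1, Egln1 and P4ha1 passed and Egln3 did not (adjusted p = 0.0693).

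The genes most like Bnip3 over the 7 arrays, by Pearson's r of log2 signal, were Tex19.1 (0.997), Ccdc80 (0.996), Rhox5 (0.992), Stx3 (0.992) and Csf2ra (0.991). Those most like Ddit4 were Eif3m (0.999), Ifi30 (0.994), Slc40a1, the iron exporter (0.991), Creb3l1 (0.991) and Exoc6 (0.991). Those most like Ndrg1 were Apoe (0.997), S100a10 (0.997), Dab2 (0.995), C1galt1c1 (0.991) and Ctsc (0.989), of which Dab2 is one of the visceral endoderm markers. The 7 arrays form a knockout group and a group of all others, so these coefficients mostly record the contrast between those groups. The 10 low-oxygen genes were left out of this ranking beforehand, and none of the 15 genes belongs to the other low-oxygen lists.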

How the data were processed

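The authors deposited 1 linear intensity per probe set and array, and the submitters' processing notes name MAS5 as the method. Not given in the sources used here are its version, its scaling target and any detection calls. After 2% of probe sets were trimmed at each end, the mean was 150.0 to 150.1 on every array, so changes are relative to the whole array.

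Of 22690 probe sets, 64 were array controls, 20380 had 1 gene symbol, 691 had several and 1555 were not listed in the platform annotation. An update through Entrez identifiers changed 0 symbols. Each signal became log2(signal + 3.8), where the pseudocount 3.8 is the 10th percentile of the table. This understates changes of dim genes. The brightest probe set stood for its gene. A filter at the 40th percentile of mean log2 signal over the 7 arrays, 38.1 on the linear scale with the pseudocount, kept 8019 genes. A gene dim outside the knockout could pass it through the knockout arrays. Genotypes, from the sample titles, were compared in R 4.3.3 with limma 3.58.1 (lmFit, eBayes with trend) in 1 fit over the 7 arrays, with 4 residual and 6.19 prior degrees of freedom. Two-sided p-values were adjusted over the 8019 genes by Benjamini and Hochberg, and 0.05 was the threshold. The test was checked on simulated data.

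The named genes are the 10 genes in every comparison and up to 6 called genes of each list by size. Also named are the 5 genes outside the 10 that were most correlated with each of Bnip3, Ddit4 and Ndrg1. Arnt, Vhl, Egln2 and Atf4 were added after their values were seen. Genes, lists and tests were chosen with earlier results of these data known. Alternatives changed the pseudocount, filter, normalization, trend, array weights, choice of probe set and arrays, and added a replicate block or a marker score. Precision is limited by the number of arrays.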

Additional observations from a re-analysis of the deposited data

How the results depend on the processing

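Between knockout and wild type, 5 of the 10 genes passed with all arrays, and with 1 array left out 2 to 5 passed, Bnip3 and Ddit4 in every case. Without either knockout array 2 passed, and without wild-type replicate 2, 3 passed. Against heterozygotes 6 passed, and 2 to 6 with 1 array left out, 2 of them without knockout replicate 2. With the mean of all probe sets 3 of 8 tested genes passed in each of these comparisons (Bnip3, Ddit4 and P4ha1). Ndrg1 then lay under the filter and was not tested. Adjusting for the endoderm marker score, 0 passed in each, and with the Y-linked score 0 against wild type (limma; unadjusted counts stand in the report). No difference of the 10 genes that passed changed sign under any of the alternatives, and 0 passed between heterozygotes and wild type under all 20.

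The labels do not say whether the replicate numbers of the titles pair the arrays. Deviations from group means of same-numbered arrays correlated at -0.29 to 0.0047. In a group of 2 arrays the deviations mirror each other, so these coefficients cannot decide whether the arrays were paired. With the replicate number as a block 2 of the 10 genes passed against wild type (Bnip3 and Ddit4), and over all genes 72 and 76 passed in the knockout comparisons.

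Over all genes 266 passed against wild type and 470 against heterozygotes. These counts were 161 and 306 without the filter, 174 and 262 without the trend, and 514 with array weights against wild type. They were 0 and 0 with the endoderm score, and 0 and 144 with the Y-linked score. They ran from 36 to 417 and from 67 to 545 with 1 array left out. Between heterozygotes and wild type 1 gene passed with the endoderm score. The counts of the gene lists were put through the same alternatives, a choice made after seeing the data. Of the glycolysis genes, 6 passed against wild type, 10 with only the arrays of both genotypes in the fit, 3 with the replicate block and 0 with either score. Of the other HIF targets, 10 passed, 12 with both genotypes only, 7 with the block and 0 with either score. Detection calls were not used here, so the limit of detection of Adm and the dim Ndrg1 probe sets is unknown. The cause was not tested.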
